A study of Mus musculus with 6 samples.

Results

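The expression of 10 melanocyte lineage and pigment genes, Mitf, Sox10, Mc1r, Tyr, Tyrp1, Dct, Pmel, Mlana, Slc45a2 and Oca2, was compared between B16F10 melanomas grown in the mouse hind footpad and in the flank skin. The members were taken by gene symbol from the 45777 genes of the deposited table; 10 of 10 were found, and 10 of 10 passed the filter on low counts. B16F10 is a melanoma cell line derived from a C57BL/6 mouse, so all tumors shared 1 parental line. The 3 footpad and 3 flank skin tumors, with 1 RNA library each, came from Foxn1-/- hosts aged 8 weeks by the sample labels, which are nude mice that lack a thymus and most T cells but keep innate immune cells and B cells. No agent was given in either group by these labels. The study's methods describe B16F10 grafts in C57BL/6J mice as well and do not name the host of the sequenced tumors, nor do the labels say which tumors shared a mouse. The paper describes injecting flank and footpad at the same time, and gives n = 3 mice for its plot of selected genes between the sites. Footpad and flank skin tumors may therefore have shared mice, while the main fit treated the tumors as independent. Its p-values set the difference between the sites against the spread among tumors of a site. The comparison asks how the footpad, a site that bears weight, and the flank, a site that does not, differed in tumor transcripts.

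Melanocytes descend from the neural crest, and their identity rests on the transcription factors SOX10 and MITF. SOX10 drives Mitf, and MITF in turn drives the genes that make melanin inside melanosomes. The enzyme tyrosinase, encoded by Tyr, carries out the rate-limiting step, and its relatives TYRP1 and DCT act further along the eumelanin route. PMEL forms the amyloid fibrils on which melanin is laid down, MLANA (MART-1) is a melanosomal membrane protein, and SLC45A2 and OCA2 are transporters that set the conditions in the melanosome. MC1R, the receptor for α-melanocyte-stimulating hormone, acts through cyclic AMP and CREB on Mitf.

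The promoter sequences that tie these genes to MITF and CREB were read from RefSeq windows of GRCm38.p6, each of 300 bases with 250 before a start site. Windows were given for 6 of the members (Mitf, Mc1r, Tyr, Tyrp1, Dct and Oca2), with 3 for Mitf and 8 in all. They were searched on both strands for TCATGTG, the core of the M-box that MITF binds, and for TGACGTCA, the cyclic AMP response element that CREB binds, which do not overlap in these windows. TCATGTG was found in 4 of the 8 windows, those of Tyr, Tyrp1, Dct and Mc1r, against 3.77% of all 32851 windows. TGACGTCA was found in 1 of the 8, the furthest downstream of the Mitf windows, against 1.79% of all windows. The 5 stretches of 100 bases are shown because they carry these letters, in capitals, and the strand is that of the gene. The Tyr stretch lies at chr7:87493513-87493612 (minus strand), with the motif beginning 22 bases before the start site. The Tyrp1 stretch lies at chr4:80834113-80834212 (plus strand), with the motif 47 bases before the start site of its window. For Tyrp1 and Mitf that start site lies inside the annotated span of the gene given below, and so do the stretch shown for Mitf and the motif of Tyrp1. The Dct stretch is at chr14:118052348-118052447 (minus strand, 151 bases before), that of Mc1r at chr8:123406980-123407079 (plus strand, 52 bases before) and that of Mitf at chr6:97991580-97991679 (plus strand, 153 bases before). A second TCATGTG of Dct, on the opposite strand, begins 232 bases before the start site and is not shown. These matches describe letters and not occupied sites.
Tyr: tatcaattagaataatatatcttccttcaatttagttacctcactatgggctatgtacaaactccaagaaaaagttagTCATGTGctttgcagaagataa
Tyrp1: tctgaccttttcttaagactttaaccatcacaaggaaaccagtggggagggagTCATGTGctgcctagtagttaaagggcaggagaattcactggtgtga
Dct: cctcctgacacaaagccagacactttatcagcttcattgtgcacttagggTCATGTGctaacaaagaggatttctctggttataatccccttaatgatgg
Mc1r: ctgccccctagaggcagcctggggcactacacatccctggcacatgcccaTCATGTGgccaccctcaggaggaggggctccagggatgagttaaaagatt
Mitf: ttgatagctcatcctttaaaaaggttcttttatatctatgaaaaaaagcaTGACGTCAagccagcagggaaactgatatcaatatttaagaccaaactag

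Between 46529649 and 66364366 reads per tumor were counted on genes. Together the 10 members took 0.987%, 1.97% and 1.35% of these reads in footpad replicates 1, 2 and 3, and 2.39%, 1.62% and 1.71% in the flank. Several tumors stood apart in genes of other cells. Summed over 8 keratinocyte markers, footpad replicate 2 had 585 CPM (the reads of a gene scaled to a common library size, with edgeR's TMM factors; triplets below are in the order of replicates 1, 2 and 3) against 0.155 to 38.7 CPM in the other 5 tumors, and over 8 skeletal muscle markers it had 1043 CPM against 11.0 to 190 CPM. Its 6 neutrophil markers summed to 6.29 CPM, within the range of the flank skin tumors (18.8, 28.1 and 4.22 CPM), while footpad replicates 1 and 3 reached 333 and 163 CPM. Erythroid genes were high in footpad replicate 1 (36473 CPM), flank replicate 1 (30993 CPM) and footpad replicate 3 (17881 CPM) and lay between 1929 and 3961 CPM in the remaining tumors. The 8 fibroblast markers summed to 1441 to 2274 CPM in footpad tumors and 58.1 to 253 CPM in flank skin tumors, with Dpt at 0 reads in flank replicates 1 and 3. The 8 endothelial markers summed to 126 to 197 CPM in footpad and 70.5 to 89.1 CPM in flank skin tumors, and the 8 macrophage markers to 115 to 143 CPM and 24.0 to 105 CPM. The study's methods describe isolating B16F10 cells from the tumors, and these markers of other cells were still read. In bulk RNA, fewer cells of a type and less RNA per cell cannot be told apart, and melanocytes of the host skin cannot be told apart from the grafted cells. The part of these cells in the members' values was not tested.

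Dct, Tyrp1, Pmel and Mlana were among the most abundant transcripts in both sites. To set genes side by side, levels were taken per transcript length as FPKM, which divides the reads of a gene by its transcript length and the depth of the library. Dct had the highest mean level, 1896 ± 623 FPKM (SD, n = 6 tumors), and ranked between 11 and 31 among all 45777 genes of a tumor. Tyrp1 followed at 1668 ± 528 FPKM, with ranks between 13 and 40, and Pmel at 1507 ± 408 FPKM, with ranks between 14 and 41. Within a tumor Dct exceeded Tyrp1 in 5 of 6 and Tyrp1 exceeded Pmel in 5 of 6, and the ranges of these neighbors overlapped. These 3 genes made up between 78.9% and 84.8% of the summed FPKM of the 10 members. Mlana stood alone below them at 603 ± 110 FPKM and above the next gene in 6 of 6 tumors.

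Tyr, Mitf and Slc45a2 formed a middle group that could not be ordered by their levels per length. Their means were 155 ± 90.4, 151 ± 49.0 and 151 ± 52.9 FPKM (SD, n = 6), and their ranges overlapped. Although Tyr had the highest mean of this group, it exceeded Mitf in only 1 of 6 tumors, flank replicate 1. Sox10 (55.9 ± 5.36 FPKM) and Mc1r (53.5 ± 19.5 FPKM) came next with overlapping ranges. Oca2 was the lowest at 18.6 ± 8.15 FPKM, with ranks between 2156 and 5613, below Mc1r in 6 of 6 tumors. Even for Oca2 the lowest count in a tumor was 1579 reads.

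**Figure D1:**
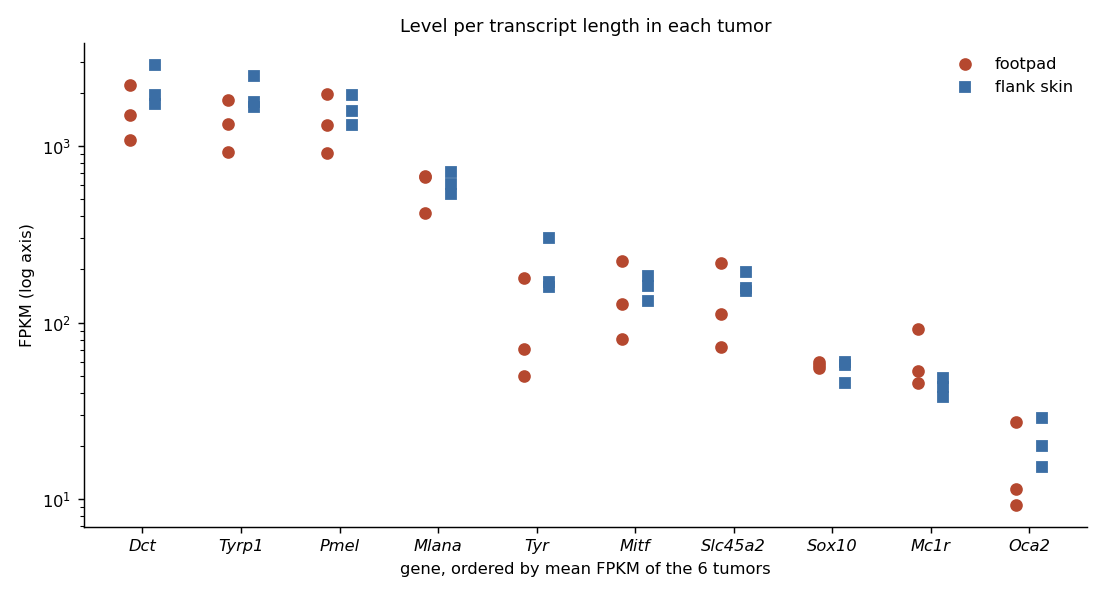
FPKM on a log axis for each of the 10 genes, ordered by their mean over 6 tumors; circles are the 3 footpad tumors and squares the 3 flank skin tumors. Dct, Tyrp1 and Pmel lie highest, Mlana below them, and Oca2 lowest at 18.6 FPKM on average.

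The 2 lineage transcription factors differed in how far they varied among tumors. Sox10, on chromosome 15 from 79154913 to 79164490 of GRCm38.p6, was at 191, 161 and 179 CPM in the footpad and 151, 166 and 175 CPM in the flank. It was the steadiest member, with only 1.27-fold between the highest and lowest tumor, and the sites overlapped (log2 fold change of footpad over flank 0.11, standard error (SE) 0.13, edgeR adjusted p = 0.650). Mitf, on chromosome 6 from 97807002 to 98021360, was at 455, 1084 and 644 CPM in the footpad and 744, 873 and 831 CPM in the flank. Footpad tumors therefore held both the lowest and the highest Mitf level, 2.38-fold apart, whereas flank skin tumors lay within 1.17-fold. The log2 fold change of Mitf was -0.17 (SE 0.30, edgeR adjusted p = 0.768), and -0.57 without footpad replicate 2 (edgeR adjusted p = 0.156) but 0.08 without footpad replicate 1 (edgeR adjusted p = 0.901). Counts per gene do not separate the MITF isoforms that start at different promoters.

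Mc1r was the only member for which the sites did not overlap in CPM, every footpad tumor lying above every flank skin tumor. Across all 17210 genes tested, 32.5% did not overlap between the sites, 17.5% with every footpad tumor higher and 14.9% with every footpad tumor lower. Mc1r, on chromosome 8 from 123407082 to 123410744, was at 204, 359 and 213 CPM in the footpad and 171, 184 and 178 CPM in the flank. The flank skin tumors lay within 1.08-fold of each other, and footpad replicate 2 was at 2.02 times their mean. The means were 259 ± 86.8 CPM in footpad and 178 ± 6.92 CPM in flank skin tumors (SD, n = 3; log2 fold change 0.54, SE 0.23, edgeR adjusted p = 0.191), and the difference did not pass. Without footpad replicate 2 the log2 fold change was 0.23 (edgeR adjusted p = 0.346). In FPKM the sites overlapped, since footpad replicate 1 had 45.7 FPKM and flank replicate 2 had 48.8 FPKM.

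Tyr, the tyrosinase gene, had the widest range and the largest difference of the 10 genes, in the direction opposite to Mc1r. It lies on chromosome 7 from 87424771 to 87493512. Its levels were 360, 1124 and 454 CPM in the footpad and 2191, 1022 and 1053 CPM in the flank, a span of 6.08-fold. Footpad replicates 1 and 3 lay below all flank skin tumors, while footpad replicate 2 lay between them. Tyr averaged 646 ± 416 CPM in footpad and 1422 ± 666 CPM in flank skin tumors (SD, n = 3; log2 fold change -1.14, SE 0.49, edgeR adjusted p = 0.198). The flank mean was 2.20 times the footpad mean, and the difference did not pass over all 6 tumors. Without footpad replicate 2, Tyr passed (log2 fold change -1.81, edgeR adjusted p = 0.0490), and without flank replicate 1 its log2 fold change was -0.69 (edgeR adjusted p = 0.406).

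The other melanin enzymes leaned the same way as Tyr, by less. Tyrp1, on chromosome 4 from 80834123 to 80851736, was at 3070, 5262 and 3996 CPM in the footpad and 8326, 4958 and 5083 CPM in the flank (log2 fold change -0.58, SE 0.30, edgeR adjusted p = 0.271). Dct, on chromosome 14 from 118012790 to 118052246, was at 2995, 5332 and 3708 CPM against 7992, 4060 and 4962 CPM (log2 fold change -0.50, SE 0.33, edgeR adjusted p = 0.379). For both genes the sites overlapped, flank replicate 1 was the highest tumor and footpad replicate 1 the lowest. Without flank replicate 1 the log2 fold changes were -0.29 and -0.17 (edgeR adjusted p = 0.514 and 0.737).

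The melanosome proteins and transporters overlapped between the sites. Pmel, on chromosome 10 from 128695888 to 128720238, was at 2400, 4513 and 3094 CPM in the footpad and 5046, 2898 and 3788 CPM in the flank (log2 fold change -0.23, SE 0.30, edgeR adjusted p = 0.670). The annotated span of Pmel holds Cdk2 and meets the ends of Rab5b and Dgka, and the sources used here do not give how the counting treated reads there. Mlana, on chromosome 19 from 29697541 to 29708447, was the next steadiest gene after Sox10, with 330, 468 and 485 CPM against 492, 374 and 526 CPM (log2 fold change -0.12, SE 0.21, edgeR adjusted p = 0.761, and 0.04 without footpad replicate 1). Slc45a2, on chromosome 15 from 11000721 to 11029233, was at 265, 694 and 367 CPM against 572, 464 and 649 CPM (log2 fold change -0.35, SE 0.34, edgeR adjusted p = 0.562). Oca2, on chromosome 7 from 56239593 to 56536518, was at 35.4, 93.0 and 40.2 CPM against 111, 65.2 and 54.1 CPM (log2 fold change -0.45, SE 0.42, edgeR adjusted p = 0.532). For Slc45a2 and Oca2 it was again footpad replicate 2 that lay within or above the flank values, with footpad replicates 1 and 3 below them. Without that tumor their log2 fold changes were -0.83 and -1.03 (edgeR adjusted p = 0.0807 and 0.101). Without footpad replicate 1 they were -0.085 and -0.21 (edgeR adjusted p = 0.912 and 0.839), and that of Oca2 was -0.090 without flank replicate 1 (edgeR adjusted p = 0.915). The log2 fold change of Pmel was likewise -0.042 without footpad replicate 1, -0.0078 without flank replicate 1 and -0.51 without footpad replicate 2 (edgeR adjusted p = 0.960, 0.991 and 0.319).

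**Figure D2:**
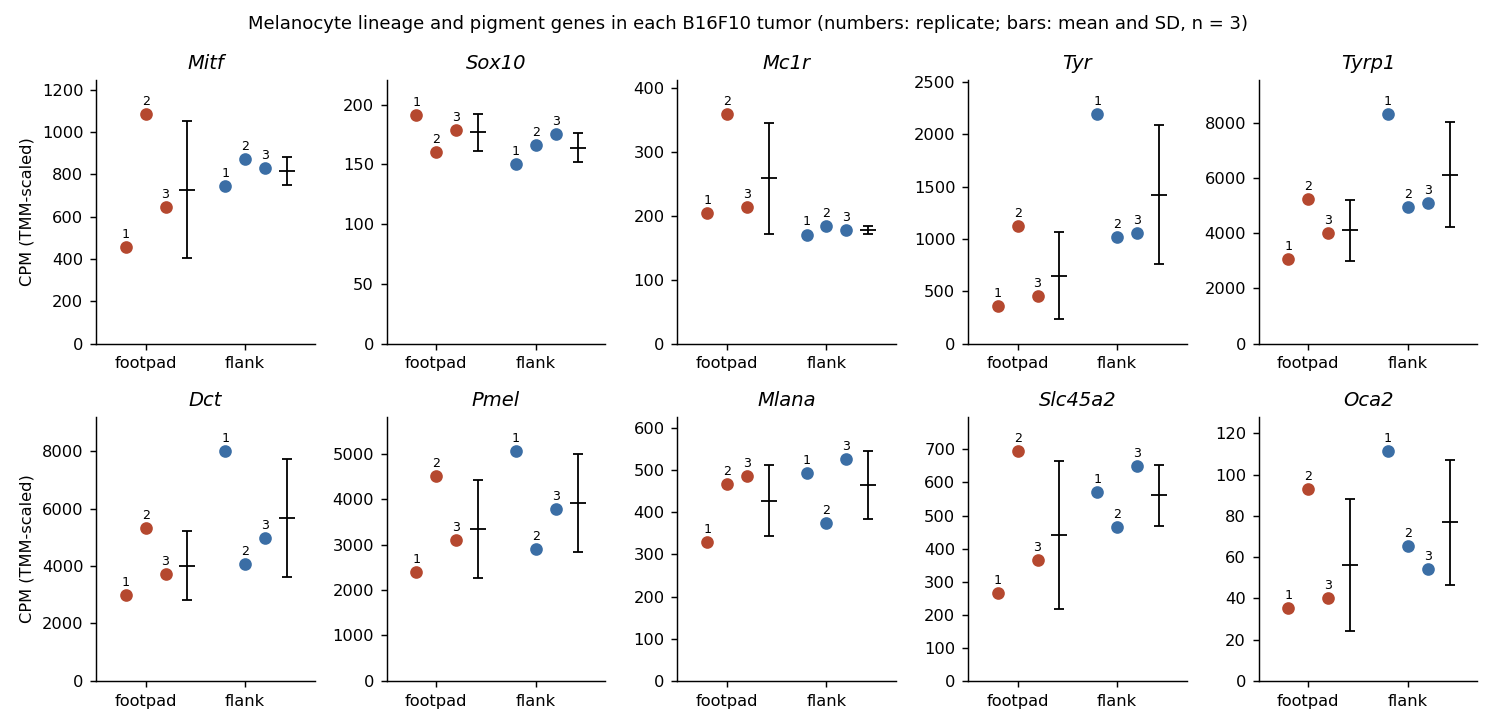
CPM of each gene in each tumor, with the replicate number above each point and the mean and SD of 3 tumors beside them. Sox10 lies between 151 and 191 CPM in all tumors, the Mc1r points of the sites do not overlap, and footpad replicate 2 is the highest footpad tumor for 8 of the 10 genes.

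Counted together, 0 of the 10 members were called by edgeR's quasi-likelihood test (adjusted p below 0.05 and at least 2-fold), against 3.76% of the 17210 genes tested (2.89% higher and 0.872% lower in footpad tumors). With no threshold on the fold, edgeR passed 0 of the 10 against 4.87% of all genes. DESeq2 called 0 of the 10, against 8.78% of the genes it tested, and limma on log2 FPKM, with a pseudocount of 1 or 0.1, also called 0. An unadjusted p under 0.05 was found for 2 members, Tyr and Mc1r, against 25.3% of all genes tested. The log2 fold change was negative for 8 of the 10, with a median of -0.29 against -0.0042 over all genes tested. It was negative for 8 of the 10 in 14 of 15 alternative fits, the exception being that without footpad replicate 1, with 6 of the 10. Without footpad replicate 2, 1 of the 10 (Tyr) was called lower, against 1.12% of the 17639 genes tested in that fit, and 5 had an unadjusted p under 0.05, against 25.8%. The 10 values come from the same 6 tumors and are not independent of each other.

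**Figure D3:**
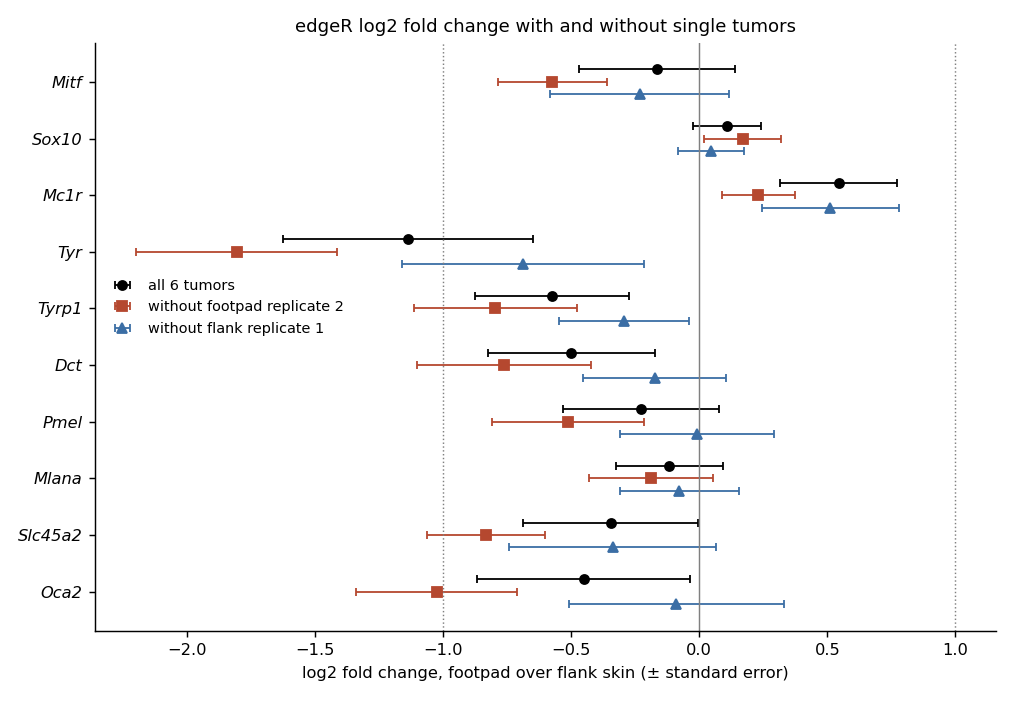
Log2 fold change of footpad over flank skin tumors from edgeR with its standard error, over all 6 tumors and without footpad replicate 2 or flank replicate 1; dotted lines mark a fold change of 2. Tyr moves from -1.14 to -1.81 without footpad replicate 2 and to -0.69 without flank replicate 1, and Sox10 stays near 0.

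Much of the variation of the pigment genes lay between tumors of the same site. In footpad tumors the median range of the members, highest over lowest, was 1.83-fold, against 1.32-fold over the 13603 tested genes with a mean of at least 1 CPM. In flank skin tumors the medians were 1.54-fold and 1.38-fold. Among these genes, 94.9% had a smaller footpad range than Tyr (3.12-fold), 93.2% a smaller one than Slc45a2 and Oca2 (2.62-fold each) and 91.7% a smaller one than Mitf, but 26.7% a smaller one than Sox10 (1.19-fold). Footpad replicate 1 was the lowest footpad tumor for 9 of the 10 members, and footpad replicate 2 the highest for 8. How often this was so over all genes was not computed. Relative to footpad replicate 1, footpad replicate 2 had 3.12 times the Tyr level, 2.38 times that of Mitf, 1.78 times that of Dct and 0.841 times that of Sox10.

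Flank replicate 1 combined the extremes of both directions. It had the highest level of Tyr, Tyrp1, Dct, Pmel and Oca2 among all 6 tumors and the lowest level of Sox10 and Mc1r, and its Mitf level was the lowest of the flank skin tumors. Its ratio of Tyr to Mitf was 2.29 in FPKM, against 0.919 and 0.985 in flank replicates 2 and 3. The 11 Schwann cell markers, some of which melanoma cells also express, summed to 842 CPM in this tumor, whereas the remaining tumors lay between 551 and 596 CPM.

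Ratios within a tumor do not depend on how many reads came from other cells that lack these transcripts. They were chosen for display after the values were seen and are given as a description without a test. The ratio of Tyr to Mc1r was 1.09, 1.94 and 1.34 in the footpad and 7.96, 3.47 and 3.67 in the flank in FPKM, with means of 1.46 ± 0.438 and 5.03 ± 2.54 (SD, n = 3). The sites did not overlap, also in footpad replicate 2, where both genes were high for a footpad tumor. The ratio of Tyr to Mitf was 0.617, 0.807 and 0.558 in footpad and 2.29, 0.919 and 0.985 in flank skin tumors. The ratio of Mc1r to Mitf was 0.564, 0.415 and 0.416 against 0.288, 0.265 and 0.269. Ratios to Sox10, in contrast, overlapped. Mitf relative to Sox10 was at 1.40, 3.99 and 2.13 in footpad and 2.91, 3.10 and 2.80 in flank skin tumors. Tyr relative to Sox10 was at 0.867, 3.22 and 1.19 against 6.67, 2.85 and 2.76, and Mc1r relative to Sox10 at 0.793, 1.66 and 0.883 against 0.839, 0.822 and 0.752. How often ratios of other genes overlap was not computed.

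The make-up of the pigment RNA was expressed as the share of each gene in the summed FPKM of the 10 members. Tyr took 1.36%, 2.40% and 1.35% of it in the footpad and 3.51%, 2.83% and 2.42% in the flank. Mc1r took 1.25%, 1.23% and 1.01% against 0.441%, 0.815% and 0.660%. Pmel took 25.1%, 26.5% and 25.0% against 22.4%, 21.9% and 24.2%. For these 3 genes the sites did not overlap, with Tyr lower and Mc1r and Pmel higher in footpad tumors. That is 3 of 10, where 32.5% of all genes tested did not overlap in CPM. The shares of the other 7 genes overlapped, for example Dct with 29.2 ± 0.715% in footpad and 30.8 ± 2.33% in flank skin tumors (SD, n = 3). Because shares of 1 total move against each other, the 10 values of a tumor are not independent.

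**Figure D4:**
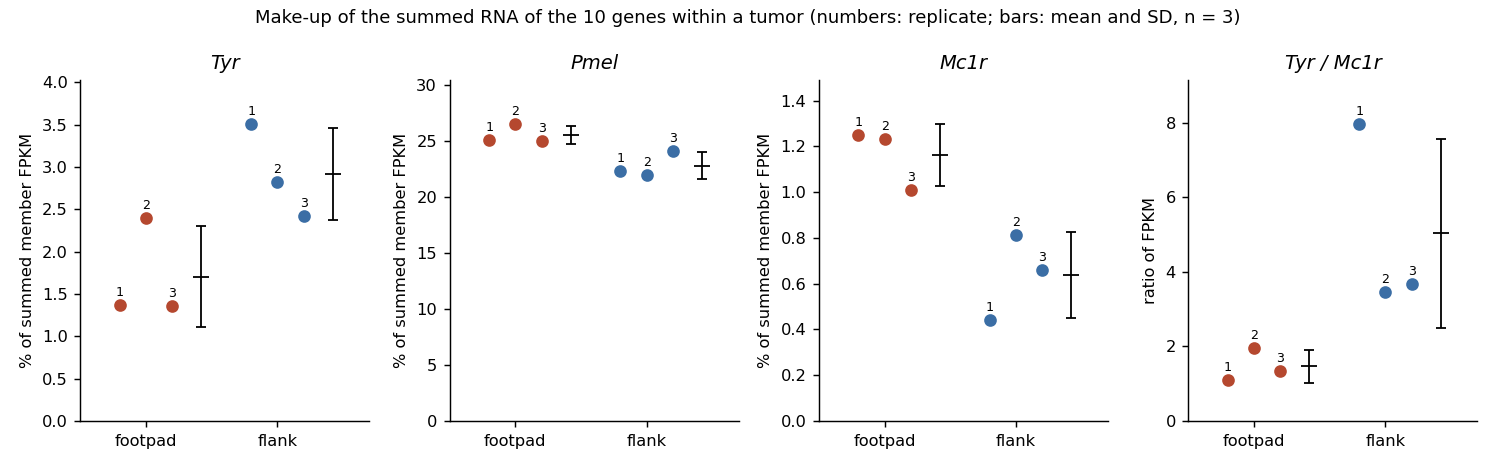
Share of Tyr, Pmel and Mc1r in the summed FPKM of the 10 genes within each tumor, and the ratio of Tyr to Mc1r; numbers are replicates, and bars give the mean and SD of 3 tumors. The Tyr share and the Tyr to Mc1r ratio are lower in each footpad tumor than in any flank skin tumor, and the Mc1r and Pmel shares are higher.

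Other genes of the melanocyte program were taken from 5 lists with 72 different genes, of which 64 were tested. Of these 64, 5 were called higher and 0 lower in footpad tumors, or 7.81% against 3.76% of all genes. Among 13 tested transcription factors 0 were called in either direction by edgeR or DESeq2, with a median log2 fold change of 0.07. An unadjusted p under 0.05 from edgeR was found for 4 of the 13, against 25.3% of all genes tested. Pax3, which acts with SOX10 on Mitf, was at 95.0 ± 2.77 CPM in footpad and 114 ± 11.8 CPM in flank skin tumors (SD, n = 3; log2 fold change -0.26, edgeR adjusted p = 0.256). The factors with the smallest p were Creb1, which encodes the cyclic AMP responsive factor CREB (log2 fold change -0.41, adjusted p = 0.0945), Tfap2a (0.76, adjusted p = 0.104) and Snai2 (0.85, edgeR adjusted p = 0.126). DESeq2 gave Creb1 and Tfap2a adjusted p of 0.0223 and 0.0300, with folds under the threshold. Foxd3 was listed at 0 reads in all tumors.

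Among 11 tested ligands, receptors and accessory proteins, 2 ligands were called higher in footpad tumors. Kitl, the ligand of the KIT receptor that melanocytes need to survive and migrate, was at 18.6, 9.99 and 14.0 CPM in the footpad and 3.11, 6.53 and 3.96 CPM in the flank (log2 fold change 1.64, SE 0.35, edgeR adjusted p = 0.0437). Hgf, the ligand of the MET receptor, was at 1.62, 2.67 and 2.67 CPM against 0.0690, 0.513 and 0.304 CPM (log2 fold change 2.97, SE 0.66, edgeR adjusted p = 0.0491). Its flank values came from only 4, 30 and 19 reads, so it was not tested where at least 10 counts in every tumor were required. All footpad tumors lay above all flank skin tumors for both ligands. Their receptors did not pass, with Kit at 5.29 ± 2.43 against 3.46 ± 0.724 CPM and Met at 1031 ± 579 against 1140 ± 97.7 CPM (edgeR adjusted p = 0.353 and 0.834). The fibroblast markers moved with Kitl and Hgf between the sites, 8 of 8 lying higher in every footpad tumor and 6 of 8 called. Endothelial markers did so too, with 7 of 8 higher in every footpad tumor and 3 called, and macrophage markers with 3 of 8 and 1 called. Over all genes tested, 17.5% were higher in every footpad tumor and 2.89% were called higher. Of the keratinocyte markers, 3 of 6 tested were higher in every footpad tumor and 0 called. Among these 3 was Trp63, with only 8 reads each in footpad replicate 1 and flank replicate 2. Neutrophil, muscle and erythroid markers had 0 higher in every footpad tumor and 0 called, though every log2 fold change was positive. The part of these cells in the Kitl and Hgf results was not tested. Neither call held in every fit without 1 tumor. For Kitl the adjusted p from edgeR was 0.150 without footpad replicate 1, 0.142 without footpad replicate 3, 0.0820 without flank replicate 1 and 0.148 without flank replicate 3. For Hgf it lay between 0.0539 and 0.154 over the 6 fits without a tumor.

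Of the genes that act on MC1R or on the endothelin receptor, none was called. Pomc, the precursor of α-melanocyte-stimulating hormone, was at 1.38 ± 0.684 CPM in footpad and 1.06 ± 0.225 CPM in flank skin tumors (SD, n = 3; edgeR adjusted p = 0.633). Asip, the agouti antagonist of MC1R, had at most 4 reads in a tumor and was not tested. Mgrn1, which encodes a ubiquitin ligase that dampens MC1R signaling, was at 78.7 ± 5.74 against 66.7 ± 2.89 CPM (log2 fold change 0.24, edgeR adjusted p = 0.256). Ednrb, the endothelin receptor of melanoblasts, was at 11.8 ± 3.23 against 13.3 ± 3.33 CPM (edgeR adjusted p = 0.716). Its ligand gene Edn3 had 0 reads in all 6 tumors, which allows up to 3 reads, or 0.0438 to 0.0673 CPM. Edn1 was at 3.61, 0.846 and 4.92 CPM in the footpad and 0.638, 0.770 and 0.144 CPM in the flank (log2 fold change 2.59, edgeR adjusted p = 0.0986), and it was called by DESeq2 and without footpad replicate 2 but not in the fit reported here.

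Of 15 tested MITF targets outside the 10 members, 1 was called higher and 0 lower, with 12 of the 15 log2 fold changes negative and a median of -0.17. Among the 12 is Cdk2 (log2 fold change -0.52, edgeR adjusted p = 0.231), which lies within the annotated span of Pmel. How reads shared by these 2 genes were counted is not known. The gene called was Diaph1, which encodes a formin that nucleates actin and is used by many cell types, at 149, 114 and 109 CPM in the footpad and 41.2, 49.9 and 53.8 CPM in the flank (log2 fold change 1.36, SE 0.18, edgeR adjusted p = 0.0141). Its adjusted p from edgeR was 0.0611 without footpad replicate 1, 0.0702 without footpad replicate 3 and 0.0660 without flank replicate 3. Hif1a, the oxygen-regulated factor, was lower in each footpad tumor than in any flank skin tumor, at 310 ± 52.0 against 550 ± 93.1 CPM. It did not pass, with a log2 fold change of -0.83, short of 2-fold (edgeR adjusted p = 0.0521). DESeq2 gave it an adjusted p of 0.000574, with a fold that was also under the threshold. Rab27a, which ties melanosomes to their motor, was at 120, 271 and 125 CPM against 325, 293 and 318 CPM (log2 fold change -0.86, edgeR adjusted p = 0.145), and it was called lower without footpad replicate 2. Gpnmb, a melanosomal glycoprotein that macrophages also make, was at 4565 ± 737 against 3726 ± 610 CPM (log2 fold change 0.29, edgeR adjusted p = 0.440).

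Among genes of the machinery that builds and moves melanosomes, 0 of 23 were called by edgeR or DESeq2, and the median log2 fold change was 0.07. An unadjusted p under 0.05 from edgeR was found for 2 of the 23, against 25.3% of all genes tested. Rab27a is on this list too, and DESeq2 gave it an adjusted p of 0.0379 with a fold under the threshold. Mlph, the adaptor between RAB27A and myosin Va, was at 306 ± 65.2 CPM in footpad and 214 ± 17.6 CPM in flank skin tumors (log2 fold change 0.51, edgeR adjusted p = 0.132), opposite in sign to Rab27a. Lyst, a regulator of lysosome-related organelles, had a log2 fold change of 0.34 (edgeR adjusted p = 0.252). Gpr143, the ocular albinism receptor of melanosomes, had -0.62 (adjusted p = 0.287), and Slc24a5, a melanosomal cation exchanger, -0.04 (edgeR adjusted p = 0.951). Footpad replicate 2 was the highest footpad tumor for 16 of these 23 genes and for 13 of the 15 tested MITF targets, lists that share Gpr143, Slc24a5 and Rab27a, but for 2 of the 13 transcription factors. The same share over all genes was not computed.

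Genes described as high in dedifferentiated melanoma had a median log2 fold change of 1.18 over 10 tested genes, 8 positive and 2 negative. In edgeR 2 of the 10 were called higher in footpad tumors, against 2.89% of all genes tested. DESeq2 called 4, adding Egfr and Wnt5a, against 8.78% of the genes it tested in either direction. The log2 fold change was -0.04 for Sox9, -0.06 for Tcf4 and 0.23 for Jun (edgeR adjusted p = 0.975, 0.874 and 0.783). Pdgfrb, which is also one of the 8 fibroblast markers, was at 58.0 ± 3.49 against 19.3 ± 3.73 CPM (log2 fold change 1.59, edgeR adjusted p = 0.00984). Zeb1, a repressor of epithelial genes that fibroblasts express as well, was at 14.4 ± 4.75 against 4.82 ± 1.38 CPM (log2 fold change 1.58, edgeR adjusted p = 0.0416). Egfr, the epidermal growth factor receptor gene, was at 10.8, 11.3 and 15.3 CPM against 0.155, 3.01 and 0.591 CPM (log2 fold change 3.32, SE 0.90, edgeR adjusted p = 0.0749), and both limma fits called it. Wnt5a had a log2 fold change of 3.02 (adjusted p = 0.0686) and the receptor tyrosine kinase gene Axl one of 0.78 (edgeR adjusted p = 0.196). Ngfr, the neural crest receptor that marks dedifferentiated melanoma cells, had at most 24 reads in a tumor and was not tested. Without footpad replicate 1, footpad replicate 3 or flank replicate 3, neither gene passed, with adjusted p from 0.0577 to 0.0702 for Pdgfrb and from 0.140 to 0.148 for Zeb1 in edgeR. Zeb1 also did not pass without flank replicate 1 (adjusted p = 0.0887) or flank replicate 2 (edgeR adjusted p = 0.0525). Fibroblast and endothelial markers, and some macrophage and keratinocyte markers, moved with these genes as with Kitl, and their part was not tested.

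**Figure D5:**
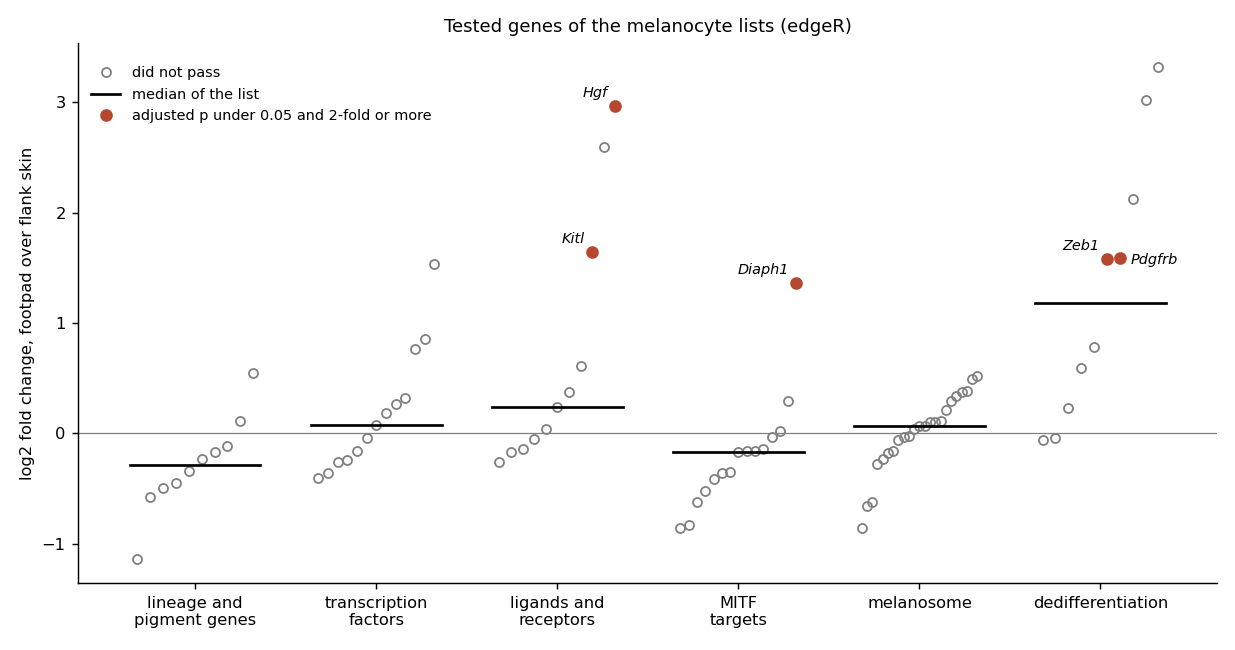
Log2 fold change of footpad over flank skin tumors for each tested gene of the 10 members and of 5 melanocyte lists, sorted within a list; filled points had an adjusted p below 0.05 and at least a 2-fold difference, and bars are list medians. Hgf, Kitl, Diaph1, Zeb1 and Pdgfrb passed, and none of the 10 members did.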

How the data were processed

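Total RNA of 3 footpad and 3 flank skin tumors was sequenced. The paper's methods describe isolating B16F10 cells from the implantation sites ahead of RNA extraction and do not say how. The authors checked reads with FastQC 0.11.7, trimmed them with Trimmomatic and aligned them to mm10 with HISAT2 2.1.0 (versions from the submitters' processing notes). The deposited values are raw read counts per RefSeq gene, together with FPKM, in which the authors divided reads by transcript length and library depth. The counting program and its handling of strand and of reads matching several genes are not given in the sources used here. Coordinates and promoter windows are from RefSeq for GRCm38.p6, matched by gene ID, and Asip was matched from its older symbol that way.

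Counts were fitted with edgeR 4.0.16 in R 4.3.3: TMM scaling, filterByExpr, which left 17210 genes, glmQLFit and glmQLFTest on all 6 tumors, and Benjamini-Hochberg adjustment over all genes tested. Calls needed an adjusted p below 0.05 and at least a 2-fold difference. Standard errors were taken as the log2 fold change divided by the square root of F. Alternatives used DESeq2 1.42.0, limma 3.58.1 on log2(FPKM + 1) and log2(FPKM + 0.1), other filters and scalings, the replicate number as a block, and fits without each tumor. The fits were tested on simulated data. Levels between genes were compared in FPKM only. Python 3.11.15, pandas 2.3.3 and matplotlib 3.10.9 served for tables and plots.

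The members and lists were written from general knowledge, with earlier results of these data known. Named genes are the 10 members, the genes called and the 3 smallest p-values of each of the 5 melanocyte lists, 13 genes fixed by name, and the 5 genes closest to the members in profile. Cdk2, Rab5b and Dgka, which overlap Pmel, and Met, Foxd3, Dpt, Egfr, Sox9, Tcf4, Jun and Trp63 are named besides. Marker lists of other cells are given as sums.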

Additional observations from a re-analysis of the deposited data

How the results depend on the processing

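For the 10 members, 146 of 149 refitted log2 fold changes kept their direction and their side of the threshold. The exceptions were Tyr, called lower without footpad replicate 2 (-1.81), and Mitf and Mlana, whose signs turned without footpad replicate 1. Over the fits without 1 tumor, the log2 fold change of Mitf ranged from -0.57 to 0.080 and that of Mlana from -0.26 to 0.037. The number of members called lower was 0, and 0 to 1 in those fits. The adjusted p of Tyr lay between 0.0490 and 0.436 over all alternatives, and that of Mc1r between 0.105 and 0.350. Of the 5 other melanocyte genes called, Kitl, Hgf, Diaph1, Pdgfrb and Zeb1, none passed with the replicate block, Kitl and Hgf did not pass with library size alone (adjusted p = 0.0547 and 0.0585), Hgf and Zeb1 with scaling to Sox10 (0.0542 and 0.0501), and Zeb1 in either limma fit (0.0939 and 0.0793). With log2(FPKM + 1), limma's fold for Kitl and Hgf was under the threshold. Scaling to the reads of Sox10, chosen after seeing the data, moved the median of all genes to -0.11, and relative to it 0 members were called. Over all genes, edgeR called 497 higher and 150 lower, DESeq2 1154 and 352, and limma on log2(FPKM + 1) 271 and 95. Without the fold threshold 590 and 248 were called. Without 1 tumor the numbers ranged from 0 to 639 higher and from 0 to 197 lower, with 0 and 0 without footpad replicate 3 and 26 and 5 without footpad replicate 1. The cause was not tested. With the replicate number as a block, 0 genes were called higher and 0 lower (3551 at an unadjusted p under 0.05), and 0 members. Same-numbered tumors deviated from their site means with correlations of 0.05, -0.10 and -0.11, and 0 of 6 tumors correlated best with its own number. The numbers were therefore not taken to pair the tumors. These correlations cannot tell whether footpad and flank skin tumors shared mice. Shares computed from CPM in place of FPKM moved the difference of Tyr to -2.84 and of Mc1r to 0.856 percentage points, in the same direction.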

Other observations

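Genes outside the 10 members were ranked by how closely their profile over the 6 tumors followed the mean profile of the members, as the root mean square difference of log2 CPM centered on each gene's mean, over 13593 tested genes with a mean of at least 1 CPM. The 5 closest were Thsd7a (0.0468), Gm38534 (0.0507), Chchd6 (0.0631), Nipsnap3b (0.0697) and Tm2d1 (0.0744). For replicates 1, 2 and 3, Thsd7a had 9.14, 16.8 and 10.5 CPM in the footpad and 18.2, 13.2 and 15.1 CPM in the flank. By the same measure the members themselves lay farther from their own mean, from 0.112 for Pmel to 0.557 for Tyr. With 6 tumors and 13593 candidates, closeness of this kind is a description of the tumors and not of a shared function.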
